A study of Mus musculus with 8 samples.

Results

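The genes described here are those through which pyruvate enters mitochondrial oxidation: the mitochondrial pyruvate carrier (Mpc1, Mpc2), the pyruvate dehydrogenase complex (Pdha1, Pdhb, Dlat, Dld) and the kinases that switch it off (Pdk1, Pdk2, Pdk3, Pdk4). They were taken by symbol from the deposited tables, which held all 10 among 17983 symbols. The tables covered 8 brain libraries from male db/db mice, a strain with a leptin receptor mutation that becomes obese and diabetic. The control group (4 libraries) received a normal diet and the ketogenic group (4 libraries) a ketogenic diet, which is rich in fat and very poor in carbohydrate. The series text puts the start of the diets at an age of 9 weeks and sampling of the whole brain at 6 months. Both groups carried the db/db genotype, so the diet was compared within diabetic mice only. The labels do not say how mice relate to libraries, so the p-values measure the spread between these libraries.

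Pyruvate, the end product of glycolysis, crosses the inner mitochondrial membrane through a carrier built from MPC1 and MPC2. The pyruvate dehydrogenase complex then converts it to acetyl-CoA, which commits glucose carbon to the citric acid cycle. Its kinases phosphorylate the alpha subunit and stop the reaction, and its phosphatases restart it. In fasting or on a fat-rich diet many tissues, muscle above all, raise Pdk4 and spare glucose, while the brain normally oxidizes mostly glucose and turns to ketone bodies when they are plentiful.

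Total counts per library ran from 34450860 to 40233361. On the first principal component of log2 CPM (counts relative to the TMM-adjusted library size) the groups did not overlap. Control libraries lay between -22.7 and -5.94. Ketogenic replicate 3 lay farthest out, at 34.4, and the other ketogenic libraries between 2.9 and 11.2. Markers of neurons, astrocytes, oligodendrocytes, microglia and endothelium were all detected, as the label brain requires, with no marker at a count of 0 in any library. Across all genes 971 of 14895 tested, or 6.52%, passed an adjusted p under 0.05 by edgeR (quasi-likelihood F test, Benjamini-Hochberg), 491 of them (3.30%) higher and 480 (3.22%) lower in ketogenic libraries.

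Of the 10 pyruvate entry genes, 0 passed that test, beside 6.52% of all tested genes (0 higher beside 3.30%, 0 lower beside 3.22%). All 10 passed the filter on low counts, with between 462 and 11519 counts per gene and library. At an unadjusted p under 0.05 in edgeR there were 2, Pdk2 and Dld, both with a lower ketogenic mean, where 24.6% of all tested genes reached that level and 12.5% did so with a lower mean. The DESeq2 Wald test called 1, Pdk2, as lower, where it called 14.1% of genes, 6.91% as lower. By limma-voom 0 were called, where 5.83% of genes were, 2.81% as lower. For 0 of the 10 genes were the control and ketogenic values free of overlap, against 13.7% of all genes. The log2 change was positive for 7 of the 10, with a median of 0.03 over the 10 and a median size of 0.0555, beside 0.128 over all tested genes.

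**Figure D1:**
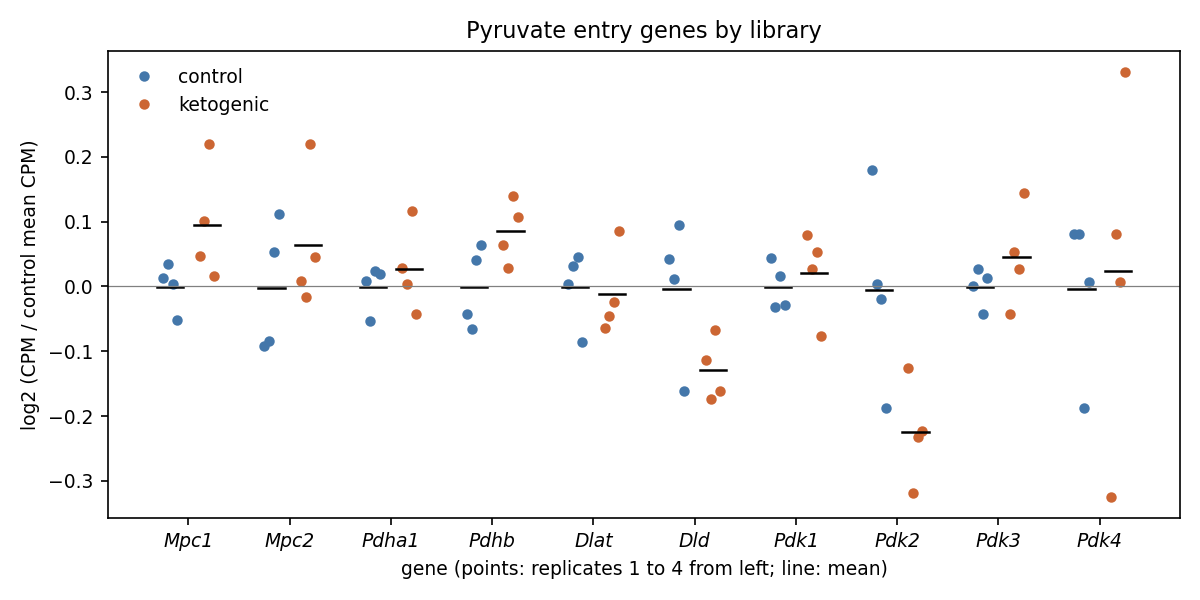
Each point is 1 library, plotted as log2 of its CPM over the mean CPM of the 4 control libraries, for the 10 genes on the x axis; black lines are group means. The groups overlap for every gene, and Pdk2 has 3 ketogenic libraries below all 4 control libraries.

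The levels of these genes differed far more among themselves than between diets. On the deposited FPKM scale, which divides by gene length, Pdha1 was the most abundant at 99.4 ± 2.57 (SD over 8 libraries), above 96.4% of tested genes. Pdhb followed at 77.8 ± 3.76 FPKM, Pdk2 at 65.7 ± 7.17, Dld at 55.4 ± 3.63, Mpc2 at 47.1 ± 3.21, Mpc1 at 29.9 ± 1.53 and Dlat at 25.1 ± 1.14. Pdk1 at 9.81 ± 0.27, Pdk3 at 9.28 ± 0.509 and Pdk4 at 4.42 ± 0.639 FPKM were the lowest. Neighbours in this order overlapped over the 8 libraries for Pdhb and Pdk2, Pdk2 and Dld, and Pdk1 and Pdk3, and for no other neighbouring pair. The lengths behind these values were implied by the authors' tables and are not those of every annotation. Exon lengths from GENCODE M21 were tried as the divisor of the same deposited counts, without a recount of reads. For Pdk3 the implied length was 11504 bases, against 2561 exonic bases in GENCODE M21, which would put its mean at 41.7 FPKM, above Pdk1 at 7.87. For Mpc2 the implied length was 806 bases against 7344, which would put it at 5.17 FPKM, below Mpc1 at 22.7. For Pdhb it was 1622 bases against 3861, which would put it at 32.7 FPKM, below Pdk2 at 54.1, Pdk3 at 41.7 and Dld at 34.3. The places of Pdk3, Mpc2 and Pdhb in the order therefore depend on the length used. The log2 change of a single gene does not depend on that divisor, since a length is the same in every library. Shares and ratios between genes do. Another gene model could also change which reads are counted, and with them the log2 change, which was not tested.

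**Figure D2:**
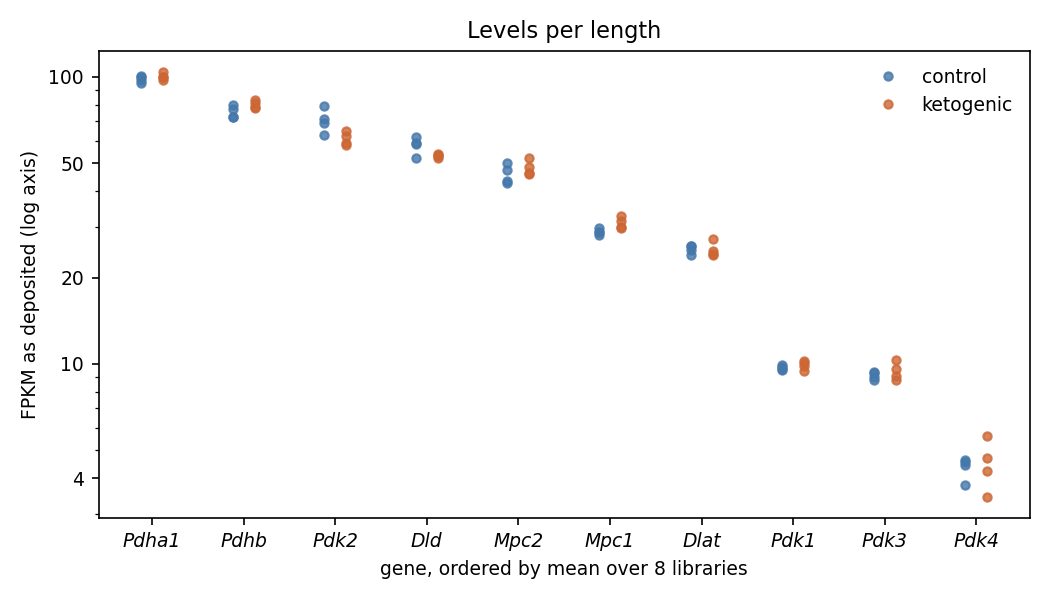
Deposited FPKM of the 10 genes on a log axis, 1 point per library, ordered by the mean over 8 libraries. Pdha1 lies between 95.2 and 104 FPKM and Pdk4 between 3.45 and 5.59 FPKM.

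Both carrier genes had slightly higher means in ketogenic libraries, without passing the test. Mpc1 (chromosome 17, 8282904 to 8297661, GRCm38, plus strand) encodes the smaller carrier subunit. Its CPM was 46.1, 46.8, 45.8 and 44.1 in control replicates 1 to 4 and 47.2, 49.0, 53.2 and 46.2 in ketogenic replicates 1 to 4. Of the ketogenic libraries 3 lay above all control libraries, and ketogenic replicate 4 lay among them. Ketogenic against control, the log2 change was 0.10 ± 0.06 (SE, edgeR adjusted p = 0.374), and its 95% interval ran from 0.975 to 1.17 times the control level. Mpc1 shares 480 exonic bases with 4930506C21Rik on the other strand in GENCODE, and whether the counting used strand is not given in the sources used here.

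Mpc2 (chromosome 1, 165460637 to 165481214, plus strand) encodes the partner subunit. Its CPM was 34.8, 35.0, 38.5 and 40.1 in control and 37.3, 36.7, 43.2 and 38.3 in ketogenic libraries. Only ketogenic replicate 3 lay above the control range. The log2 change was 0.07 ± 0.07 (edgeR adjusted p = 0.635, 95% interval 0.939 to 1.17 times control), and it was -0.03 once a trend on gene length was removed. The ratio of Mpc1 to Mpc2 FPKM was 0.632 ± 0.0584 in control and 0.643 ± 0.0287 in ketogenic libraries (SD, n = 4 each), with overlapping groups.

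The catalytic genes of the complex differed little between diets. Pdha1 (chromosome X, 160122209 to 160138413, minus strand) encodes the alpha subunit of the decarboxylase, which the kinases phosphorylate. Its CPM was 283, 271, 286 and 285 in control and 287, 282, 305 and 273 in ketogenic libraries. Ketogenic replicates 1 and 3 lay above the control range and replicates 2 and 4 within it. Pdha1 thus had a log2 change of 0.03 ± 0.05 (edgeR adjusted p = 0.778), with a 95% interval of 0.947 to 1.10 times control. Pdha1 shares 603 exonic bases with Map3k15 on the other strand in GENCODE.

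Pdhb (chromosome 14, 8165996 to 8173025, minus strand) encodes the beta subunit. Its CPM was 119, 117, 126 and 128 in control and 128, 125, 135 and 132 in ketogenic libraries. Ketogenic replicates 3 and 4 lay above all control libraries, and control replicates 1 and 2 were the lowest of the 8. The log2 change was 0.08 ± 0.05 (edgeR adjusted p = 0.375, interval 0.979 to 1.14 times control). The ratio of Pdha1 to Pdhb FPKM was 1.30 ± 0.0387 in control and 1.26 ± 0.0522 in ketogenic libraries. These groups overlapped too.

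Dlat (chromosome 9, 50634633 to 50659780, minus strand) encodes the lipoic acid-bearing acetyltransferase at the core of the complex. Its CPM was 102, 104, 105 and 95.9 in control and 97.3, 98.6, 100 and 108 in ketogenic libraries. The highest and the lowest value were ketogenic replicate 4 and control replicate 4. Its log2 change was -0.01 ± 0.05 (edgeR adjusted p = 0.946, interval 0.918 to 1.08 times control), and its sign varied among the alternative fits.

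Dld (chromosome 12, 31331277 to 31351453, minus strand) encodes dihydrolipoamide dehydrogenase, which reoxidizes lipoic acid in this complex and in the complexes for 2-oxoglutarate, branched-chain oxo acids and glycine. Its CPM was 136, 133, 141 and 118 in control and 122, 117, 126 and 118 in ketogenic libraries. Control replicates 1 to 3 lay above all ketogenic libraries and control replicate 4 among them. Dld had a log2 change of -0.13 ± 0.06 (unadjusted p = 0.0468, edgeR adjusted p = 0.197), or 0.839 to 0.999 times control. Without control replicate 4 it was -0.18 and passed (adjusted p = 0.0398, beside 12.7% of genes called in that fit, 6.41% as lower). Dld has the lowest GC content of the 10 genes, 40%, and with a trend on GC content and length removed its log2 change was -0.01 (adjusted p = 0.93). The ratio of Dld to Pdha1 FPKM was 0.603, 0.614, 0.617 and 0.520 in control and 0.534, 0.521, 0.517 and 0.539 in ketogenic libraries, the same arrangement with control replicate 4 inside the ketogenic range.

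**Figure D3:**
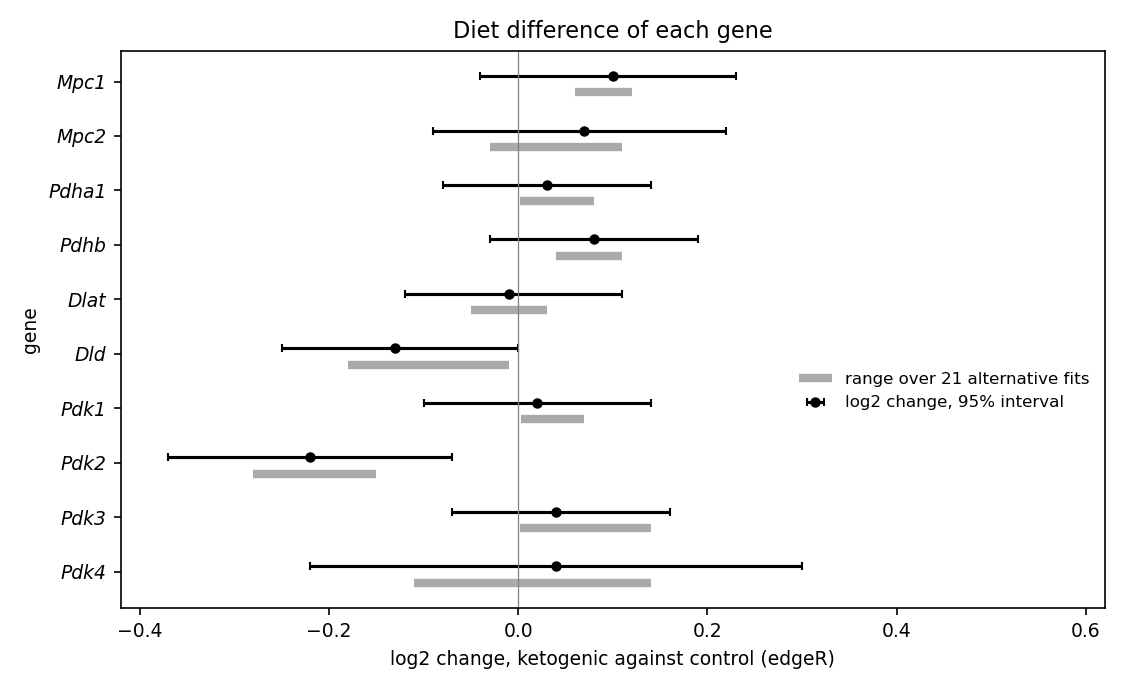
Log2 change of each gene, ketogenic against control, from edgeR (black point, bar: 95% interval), with the range over 21 alternative fits in grey. Pdk2, at -0.22, is the gene farthest from 0, and Pdk4 has the widest interval.

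The 4 kinases are encoded by paralogous genes that differ in tissue range and in what regulates them. Pdk4 is the form best known for its rise in fasting, through PPAR and FoxO factors and glucocorticoids, and Pdk1 is a known target of hypoxia-inducible factor. Pdk2 is widely expressed and was the predominant kinase mRNA here on the deposited scale. The stretches upstream of Pdk2 and Pdk4 are shown because these are the kinase genes with the largest diet difference and with the best known diet response. They come from RefSeq on GRCm38.p6, on the minus strand, written 5′ to 3′, at chr11:95041372-95041621 (250 bases) and chr6:5496310-5496528 (219 bases, ending before the GENCODE start). Capitals mark matches, on either strand, to CCAAT (the box bound by NF-Y) and to ACGTG. The motif ACGTG is the core bound by hypoxia-inducible factor and also lies inside the E-box, so a match does not tell these apart. With its leading base the Pdk2 match, CACGTG, reads the same on both strands.
Pdk2: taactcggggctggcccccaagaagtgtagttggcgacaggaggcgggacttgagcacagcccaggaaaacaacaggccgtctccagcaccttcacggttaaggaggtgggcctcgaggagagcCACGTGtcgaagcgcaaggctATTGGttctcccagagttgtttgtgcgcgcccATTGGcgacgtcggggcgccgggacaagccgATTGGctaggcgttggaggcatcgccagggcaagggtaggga
Pdk4: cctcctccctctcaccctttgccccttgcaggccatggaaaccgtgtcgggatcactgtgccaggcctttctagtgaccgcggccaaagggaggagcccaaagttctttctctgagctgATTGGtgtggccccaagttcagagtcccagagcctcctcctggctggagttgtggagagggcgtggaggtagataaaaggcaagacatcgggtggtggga

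All 10 genes matched the RefSeq promoter table, and 6 motifs were searched on both strands in the 250 bases before each gene's first listed start. For Mpc1 (chr17:8283537-8283786) and Mpc2 (chr1:165461010-165461259) this window lies wholly inside the GENCODE bounds of the gene. For Pdhb, Pdk3 and Pdk4 it does so in part. CCAAT was found in 7 of the 10, with 3 matches each in Pdk2 and Pdhb, against 33.8% of all 32851 windows. The GC box GGGCGG was found in 6 of 10 (32.7% of all windows), TGACG of cyclic AMP response elements in 2 (17.8%) and ACGTG in 3 (16.6%). The 3 with ACGTG were Pdk2, Pdhb and Pdk3. The nuclear receptor core AGGTCA and the FoxO motif GTAAACA were found in 0 of the 10 windows, and in 14.0% and 3.17% of all windows. These are letter matches within 250 bases and say nothing about distant elements.

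Pdk2 (chromosome 11, 95026258 to 95041354, minus strand) had the largest diet difference of the 10 genes, at the edge of the test. Its CPM was 209, 185, 182 and 162 in control and 169, 148, 157 and 158 in ketogenic libraries. Ketogenic replicates 2 to 4 lay below every control library, and ketogenic replicate 1 lay above control replicate 4. The means were 184 ± 19.3 and 158 ± 8.78 CPM (SD, n = 4 each). Pdk2 therefore had a log2 change of -0.22 ± 0.07 (SE, unadjusted p = 0.0057, edgeR adjusted p = 0.0656), or 0.775 to 0.95 times control. The adjusted p was 0.0275 with the DESeq2 Wald test and 0.0134 without control replicate 4, where the log2 change was -0.28. It was 0.205 without control replicate 1, the library with the highest value, where the log2 change was -0.15. Pdk2 has the highest GC content of the 10 genes, 56.9%, and with the trend on GC content and length removed its log2 change was -0.27 (adjusted p = 0.0678). An antisense transcript gene, Gm11513, lies within its bounds and shares 0 exonic bases with it.

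Some astrocyte markers differed in the same comparison, in both directions. Of 8 markers 4 were lower (Aqp4, Gfap, Gja1 and Aldh1l1, with log2 changes of -0.54, -0.26, -0.34 and -0.24) and 1, Fgfr3, was higher (0.33), by edgeR's adjusted p. Of all tested genes 3.22% were lower and 3.30% higher. Slc1a2, Slc1a3 and Aldoc, the most abundant of the list, were not called, with log2 changes of -0.12, -0.05 and 0.06. The summed CPM of the 8 ran from 4780 to 5610 in control and from 4670 to 5290 in ketogenic libraries. Neuron markers had 0 of 8 called, with sums of 8290 to 9260 and 7700 to 9170 CPM. Choroid plexus markers had 0 of 5 called, with sums of 585 to 1130 CPM in control and 1060 to 1360 CPM in ketogenic libraries. Of 8 oligodendrocyte markers 1 was lower, of 8 microglia markers 1 was higher, and of 8 endothelium and mural cell markers 0 were called. Red cell genes were higher in 4 of 5, with sums of 15.3 to 52.4 CPM in control and 69.4 to 114 CPM in ketogenic libraries, none at 0. The part of these markers in the values of the pyruvate entry genes was not tested. In whole-brain RNA fewer cells of a type and less RNA per cell cannot be told apart.

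Pdk4 (chromosome 6, 5483351 to 5496309, minus strand) showed no detectable diet difference. Its CPM was 15.9, 15.9, 13.2 and 15.1 in control and 12, 15.9, 15.1 and 18.9 in ketogenic libraries. The lowest and the highest of the 8 values were both ketogenic, replicates 1 and 4. The coefficient of variation was 18.5% in ketogenic libraries and 8.47% in control libraries. The log2 change was 0.04 ± 0.12 (edgeR adjusted p = 0.882), and the 95% interval ran from 0.86 to 1.23 times control. The direction was not stable, with -0.02 without control replicate 3 and -0.07 without ketogenic replicate 4.

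Pdk1 (chromosome 2, 71873224 to 71903858, plus strand) had a CPM of 62.7, 59.5, 61.5 and 59.6 in control and 64.3, 62, 63.1 and 57.7 in ketogenic libraries. Ketogenic values lay above, within and below the control range. For Pdk1 the log2 change was 0.02 ± 0.06 (edgeR adjusted p = 0.854, interval 0.934 to 1.10 times control). Pdk3 (chromosome X, 93764607 to 93832201, minus strand), which encodes the kinase least inhibited by pyruvate, had 105, 107, 102 and 106 CPM in control and 102, 109, 107 and 116 CPM in ketogenic libraries. Ketogenic replicates 2 and 4 lay above the control range. Ketogenic replicate 1 lay just below it, although its value and that of control replicate 3 both round to 102 CPM. The log2 change was 0.04 ± 0.05 (edgeR adjusted p = 0.669, interval 0.952 to 1.12 times control), and 0.14 with the trend on GC content and length removed (adjusted p = 0.218).

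The make-up of the kinase mRNA was computed in each library as a share of the summed FPKM of the 4 genes, with no test, since it is a score over genes chosen for description. Pdk2 held 77.2%, 75.1%, 75.6% and 72.9% in control and 74.2%, 70.3%, 71.8% and 71.0% in ketogenic libraries. The means were 75.2 ± 1.76% and 71.8 ± 1.70%, and the groups overlapped through ketogenic replicate 1 and control replicate 4. The remaining shares had higher ketogenic means, at 11.7 ± 0.643% against 10.4 ± 0.664% for Pdk1, 11.2 ± 0.791% against 9.77 ± 0.842% for Pdk3 and 5.31 ± 1.03% against 4.65 ± 0.443% for Pdk4. Shares are bound to each other, so a lower Pdk2 raises the others by construction. With the same counts divided by GENCODE exon lengths, Pdk3 held 36.9 ± 2.21% in control and 40.4 ± 1.89% in ketogenic libraries. Pdk2 then held 52.2 ± 2.59% and 47.8 ± 2.33%. The difference in share, ketogenic minus control, went from 1.39 to 3.51 percentage points for Pdk3 and from 1.31 to 0.565 for Pdk1 with these lengths. The ratio of summed kinase FPKM to Pdha1 FPKM was 1.05, 0.995, 0.920 and 0.856 in control and 0.872, 0.819, 0.788 and 0.894 in ketogenic libraries. Control replicates 1 to 3 were the highest, and control replicate 4 lay within the ketogenic range.

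**Figure D4:**
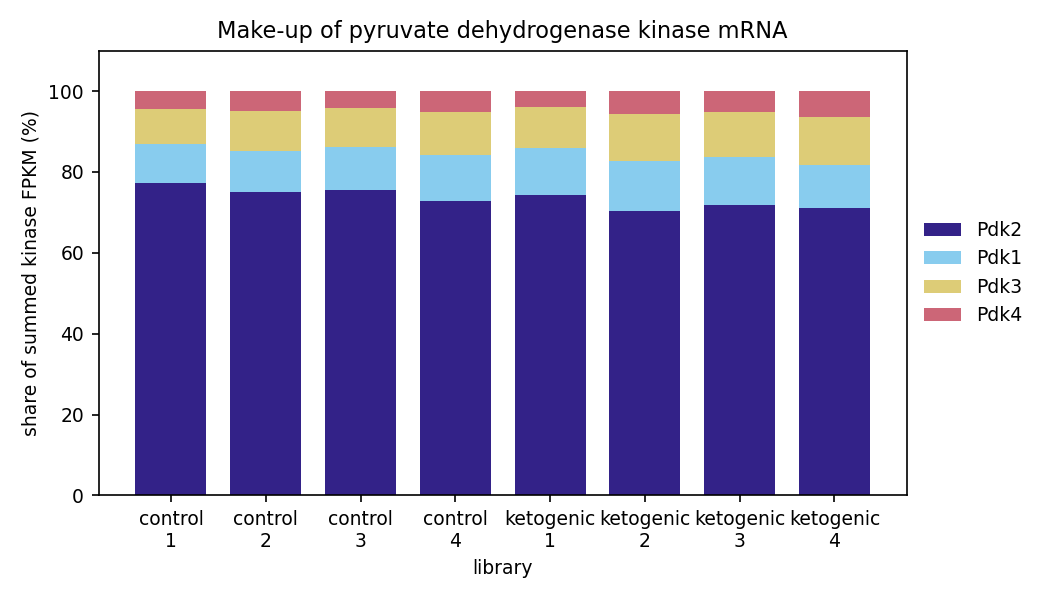
Share of each kinase gene in the summed FPKM of Pdk1 to Pdk4, 1 bar per library, on the lengths implied by the deposited tables. Pdk2 takes between 70.3% and 77.2% in every library.

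The nearest genes in pattern were found by the root mean square difference of standardized log2 CPM over the 8 libraries, among 11424 genes with a mean of at least 5 CPM. For Pdk4 they were Gpt (0.273), Arhgap27 (0.302) and Fzd7 (0.326). For Pdk2 they were Tab2 (0.147), Rogdi (0.17) and Stam (0.17). The closest pair within the 10 was Pdk3 and Pdk4 (0.374), followed by Mpc2 and Pdhb (0.434) and by Dld and Pdk2 (0.569). With so many genes and 8 libraries, close matches are a description only.

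Other genes of pyruvate use and of kinase control were read from 7 lists with 75 distinct tested genes. Of these 6 were higher and 2 lower in ketogenic libraries, or 10.7% beside 6.52% of all tested genes, with a median log2 change of 0.04. The lists were chosen with earlier results of these data known, so these shares are a description only. The genes that complete or reactivate the complex had 0 of 4 past the threshold. Pdpr, the regulatory subunit of the phosphatase, had a log2 change of 0.22 ± 0.08 (edgeR adjusted p = 0.118) and Pdp2, a phosphatase catalytic subunit, -0.14 ± 0.11 (0.459). Genes that supply lipoic acid and thiamine cofactors had 0 of 10 past it. Mcat and Mecr, of mitochondrial fatty acid synthesis, from which lipoic acid is built, had log2 changes of 0.44 ± 0.14 (edgeR adjusted p = 0.0673) and 0.23 ± 0.12 (0.25). The sister complexes, which share Dld or the same chemistry, had 0 of 12 past it. Their kinase and phosphatase for branched-chain oxo acids, Bckdk and Ppm1k, had log2 changes of -0.21 ± 0.07 (edgeR adjusted p = 0.0795) and -0.17 ± 0.05 (0.0654).

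Among 14 genes for other routes of pyruvate and acetyl-CoA, 1 rose and 0 fell, where 3.30% of all tested genes rose and 3.22% fell. Gpt2, the mitochondrial alanine transaminase that interconverts pyruvate and alanine, had 57.9, 57.2, 62.5 and 64.9 CPM in control and 76.3, 83.4, 82.8 and 84.6 CPM in ketogenic libraries. The groups did not overlap. Gpt2 rose by 0.43 ± 0.06 on the log2 scale (edgeR adjusted p = 0.00251), and leaving out any single library kept it past the threshold (adjusted p up to 0.0162). The pyruvate carboxylase gene, listed in the tables as Pcx, had a log2 change of 0.11 ± 0.06 (adjusted p = 0.265).

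Among 12 genes that regulate Pdk transcription or the complex, 1 rose and 2 fell, beside 3.30% and 3.22% of all tested genes. Sirt3, a mitochondrial deacetylase, was 1.24-fold higher (edgeR adjusted p = 0.0121), with 41.3 to 42.8 CPM in control and 49.0 to 53.7 CPM in ketogenic libraries. Hif1a, the oxygen-regulated subunit of hypoxia-inducible factor, was 1.22-fold lower (adjusted p = 0.0178), and leaving out control replicate 1, control replicate 2 or ketogenic replicate 2 raised that p to as much as 0.065; removing the trend on GC content and length raised it to 0.168. Ppargc1a, a coactivator of mitochondrial genes, was 1.19-fold lower (0.0349), and it missed the threshold when control replicate 1, 2 or 3 or ketogenic replicate 1, 2 or 4 was dropped (up to 0.112) and after removal of that trend (0.184).

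Of 12 genes often induced together with Pdk4 in fasting, 3 rose and 0 fell, beside 3.30% and 3.22% of all tested genes. Of the 3, Fkbp5 and Ucp2 are described. Fkbp5, a glucocorticoid-induced co-chaperone, was 1.84-fold higher (edgeR adjusted p = 0.000819) and stayed past the threshold whichever library was dropped. Ucp2, a mitochondrial carrier, was 1.24-fold higher (0.0333), and missed the threshold when control replicate 1, 2 or 3, or ketogenic replicate 2 or 4, was dropped (up to 0.0982) and after removal of the GC content and length trend (0.0735). Angptl4 and Cpt1a, direct PPAR targets as Pdk4 is, had log2 changes of 0.44 ± 0.27 (adjusted p = 0.346) and 0.06 ± 0.09 (0.726). Of 12 genes often induced with Pdk1 in hypoxia, 1 rose, beside the same 3.30% of all tested genes. It was the glucose transporter gene Slc2a1, 1.29-fold higher (0.013), which missed the threshold when control replicate 1 was dropped (0.0612). Ldha, another gene of that list, had a log2 change of 0.12 ± 0.06 (0.233).

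**Figure D5:**
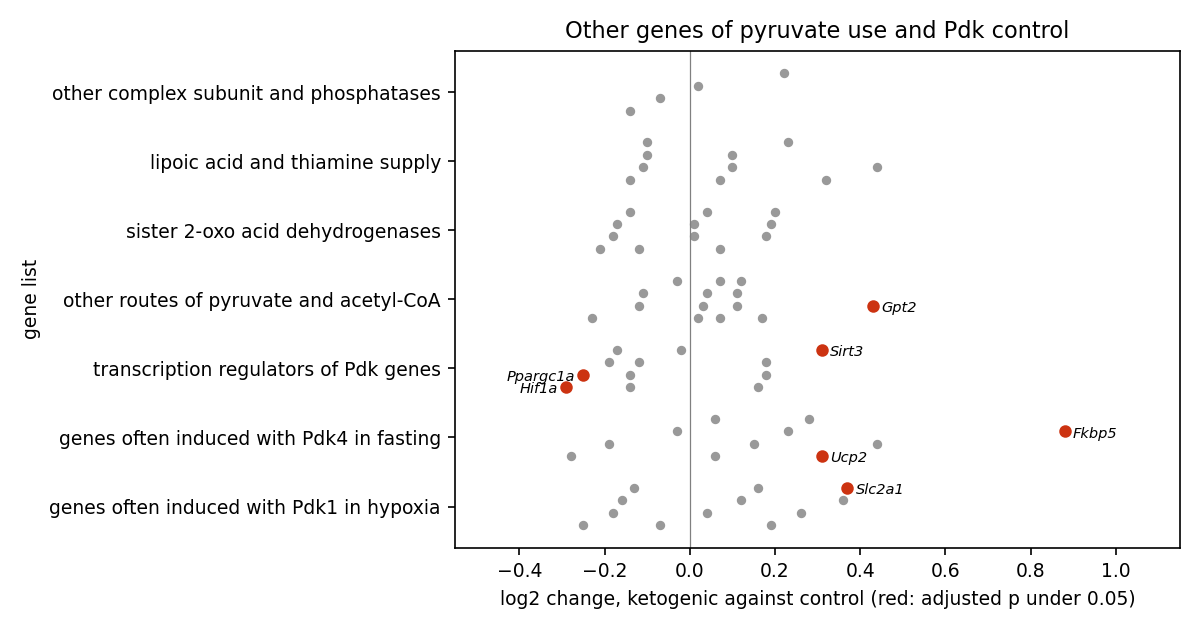
Log2 change, ketogenic against control, of the other genes in 7 lists, 1 point per gene with 1 gene left out; red points passed an adjusted p under 0.05 and are named. Of 75 distinct genes 8 passed (10.7%, beside 6.52% of all tested genes), and Fkbp5 has the largest change.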

How the data were processed

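The authors deposited whole-number counts per gene symbol and FPKM values for 8 libraries. RNA (1.3 ug) was made into libraries with a SMARTer kit per the labels' protocols, and the submitters' processing notes name GRCm38 and mm10 as builds. Not given in the sources used here are the aligner, counting program, strand setting and annotation. FPKM as deposited equals count over 1 fixed length per gene and the column total (largest relative spread of the implied length 1.79e-07 for genes that reach 10 counts in every library).

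Ketogenic was compared with control on the counts with edgeR 4.0.16 (TMM, its low-count filter, which kept 14895 genes and left out 3088, quasi-likelihood F test, diet as the only term), in R 4.3.3, with Benjamini-Hochberg adjustment over all tested genes. The SE is the log2 change over the square root of F, and 95% intervals use the test's degrees of freedom. Alternatives used DESeq2 1.42.0 and limma 3.58.1. The test was checked on simulated data.

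Members, lists and naming rule were chosen with earlier results of these data known. The rule took all 10, and in each list every gene past the threshold or, where none passed, the 2 with the smallest p; Pcx, Angptl4, Cpt1a and Ldha were added after their values were seen. It also took 3 nearest genes for Pdk4 and for the member with the smallest p. An eighth list, the paralogs Mpc1l and Pdha2, was not analysed here. Gene bounds are GENCODE M21 on GRCm38. Another gene of the lists that passed the threshold is counted but not reported here by name, an exception to the naming rule.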

Additional observations from a re-analysis of the deposited data

How the results depend on the processing

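The 10 genes had 0 higher in every alternative run. Only Pdk2 was lower with the DESeq2 Wald test, at an adjusted p under 0.1 and with the replicate number as a block. Without control replicate 4 the lower genes were 2, Pdk2 and Dld. All other runs had 0 lower, and over single libraries left out the range was 0 to 2. Of all genes, 6.91% were lower with the DESeq2 Wald test and 6.41% without control replicate 4. The lower genes were 998 of 14895 at an adjusted p under 0.1 and 782 of 14895 with the block. Uncalled log2 changes near 0 changed sign: Mpc2 to -0.03 with the length trend removed and -0.00307 without ketogenic replicates 3 and 4; Dlat to 0.01 with the length trend, 0.03 after removal of the GC and length trend, and between -0.04 and 0.01 with single libraries dropped (above 0 when control replicate 2 or 3, or ketogenic replicate 1 or 2, was dropped); Pdk4 to -0.02 when control replicate 3 and -0.07 when ketogenic replicate 4 was dropped, within a range of -0.07 to 0.14 over single libraries, and to -0.11 without ketogenic replicates 3 and 4. Log2 changes ranged from -0.28 to -0.15 for Pdk2 over 21 alternatives (adjusted p 0.0134 to 0.225), and the difference in its share of kinase FPKM from -4.17 to -2.71 percentage points with single libraries left out.

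The other pyruvate genes (6 higher, 2 lower) numbered 10 and 5 by DESeq2's Wald test, which called 14.1% of all genes it tested. They numbered 3 and 0 by limma fitted to log2(FPKM + 1) or log2(FPKM + 0.1), and 2 and 0 without ketogenic replicates 3 and 4. Lower genes were 1 with the length trend and 0 after removal of the GC and length trend. With single libraries left out the ranges were 3 (control replicate 1 dropped) to 10 (control replicate 4 dropped) higher and 0 to 3 lower. Without control replicate 4, 12.7% of all tested genes were called.

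Across all genes (491 higher, 480 lower) the counts were 891 and 857 with DESeq2, 35 and 29 with log2(FPKM + 1), 51 and 37 with log2(FPKM + 0.1), 145 and 143 after removal of the GC and length trend, 39 and 51 without ketogenic replicates 3 and 4, 40 and 39 at an adjusted p under 0.01, and 1011 and 998 under 0.1. Lower genes were 317 with the length trend removed. With single libraries left out, higher genes ranged from 70 (without control replicate 1) to 938 (without control replicate 4) and lower genes from 76 to 962 (without the same libraries). The GC and length trend and the GENCODE exon lengths were chosen after seeing the data.

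Whether samples of the same number were paired could not be settled from the values. Their deviations from the group means correlated weakly across genes, at 0.0218 to 0.0759. Samples of different numbers correlated at -0.09 to 0.0851, and 4 of 8 libraries correlated best with their own number. With the replicate number as a block, 746 genes were higher and 782 lower, with 10 other pyruvate genes higher and 1 of the 10 pyruvate entry genes lower (Pdk2, adjusted p = 0.026).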
